A study of Mus musculus with 6 samples.

Results

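Genes of monocytes, macrophages and related myeloid cells were examined in sorted mouse B cells. The 36 genes were listed by name, with earlier results of these data known. Each was read from its brightest array feature whose annotation gave that symbol alone. All 36 had such a feature, 1 each, out of 19818 genes measured in this way. They cover lysosomal proteins, surface receptors, complement C1q, Fc receptors with their signalling adaptors, cytosolic adaptors, 4 genes of mixed function (Tmem176a, Tmem176b, Lgals3 and Aif1) and the transcription factors Spi1, Cebpa and Cebpb.

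The cells were mature B cells of mouse spleen that had been activated and infected with a retrovirus carrying green fluorescent protein. In every group they spent 36 hours back in mitogen and then 24 hours without mitogen or anti-CD40 before green cells were sorted, so no group was unstimulated or untransduced. The virus was empty (EV), encoded IKK bearing K171E (IKK_K171E; the labels name no subunit) or encoded MYD88 bearing L265P (MYD88_L265P). Each group had 2 arrays described as biological replicates. IKK kinases release NF-kB from its inhibitors, and MYD88 is an adaptor upstream of them, used by Toll-like receptors. The sort selected fluorescence, and no gate on a B cell or myeloid surface protein is named. Strain and age are not given in the sources used here.

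Monocytes and the macrophages derived from them arise from bone marrow progenitors under PU.1 (Spi1) and C/EBP factors. Many macrophages depend on the CSF1 receptor for survival. In the spleen they clear old red cells and antibody-coated particles, using lysozyme and cathepsins, C1q, and Fc receptors that signal through the ITAM adaptors Fcer1g (the Fc receptor gamma chain) and Tyrobp (DAP12). B cells also use PU.1, and activated B cells can display Itgax (CD11c), so not every gene of the list is restricted to myeloid cells.

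The transduced genes read as labelled for MYD88_L265P: Myd88 had log2 signals of 12.25 and 12.31 there and between 9.14 and 9.43 on the other arrays. Ikbkb read 11.35 and 10.68 in IKK_K171E and between 9.68 and 10.22 elsewhere, with a log2 fold change over EV that missed the threshold (0.91, SE 0.21, limma adjusted p = 0.0848). Replicate arrays correlated across the 21542 tested features at 0.989 (EV), 0.992 (IKK_K171E) and 0.995 (MYD88_L265P). Of the B cell markers, log2 signals over the 6 arrays ran from 10.52 to 11.24 for Cd79a, 12.54 to 12.91 for Ms4a1 and 11.44 to 11.75 for Pax5. The deposited table has no detection calls, so a low log2 signal could not be separated from background. The number of arrays limits the precision.

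In IKK_K171E, 11 of the 36 myeloid genes rose over EV and 1 fell, 12 in all, where 1.37% of all tested features were called. The list was drawn up with earlier results of these data known. Setting its count beside that share therefore describes the list and is not a test of it. The genes that rose were Fyb, Lcp2, Lilr4b, Adgre4, Tmem176b, Fcer1g, Tmem176a, Csf1r, Clec10a, Itgax and Aif1, by log2 fold changes of 0.67 to 2.18, and Adgre1 fell by 1.17. Of all features, 0.956% were called higher and 0.413% lower in this comparison (limma, Benjamini-Hochberg adjusted p below 0.05). The median log2 fold change was 0.67 over the 36 genes and -0.04 over all features. Both IKK_K171E arrays lay above both EV arrays for 26 of the 36 genes, against 17.6% of all features, and below them for Adgre1, against 28.4%. The log2 fold change was above 0 for 33 genes (40.5% of all features), and for 23 genes both IKK_K171E arrays lay above all 4 others (5.82% of all features). The calls depended on IKK_K171E replicate 1. Without that array limma called 0 of the 36 genes and 0 of 21542 features (22 genes and 2355 features had an unadjusted p below 0.05), and the median over the 36 genes was 0.49. The log2 fold changes of the 12 genes in that fit included 2.10 for Fyb, 1.81 for Lcp2, 1.52 for Fcer1g, 1.67 for Tmem176b, 0.57 for Clec10a and -1.24 for Adgre1, with adjusted p-values from 0.093 to 0.236. Without either MYD88_L265P array, which enters the estimate of spread, 7 of the 36 were called. In bulk samples a larger share of cells of a type and more RNA per cell cannot be told apart.

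**Figure D1:**
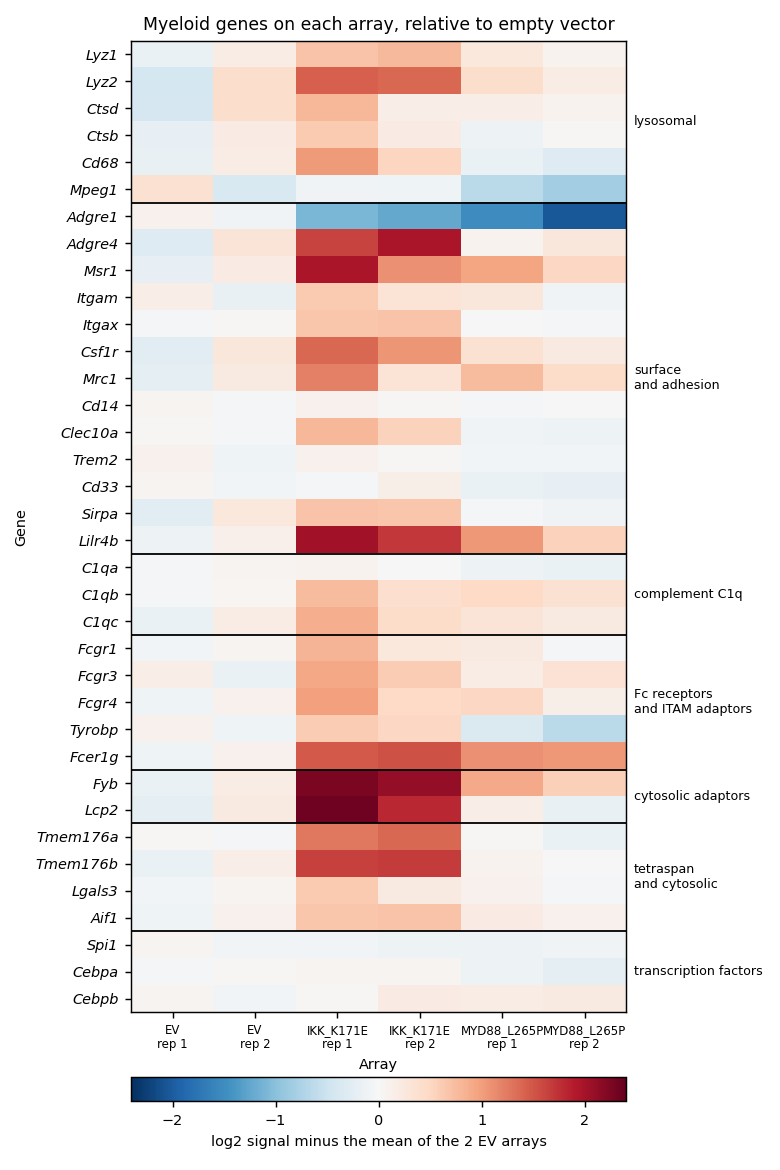
Heat map of the 36 myeloid genes (rows, grouped by role) on the 6 arrays (columns), coloured by log2 signal minus the mean of the 2 EV arrays. Most rows are red in both IKK_K171E columns, with medians over the 36 genes of 0.78 and 0.49, against 0.13 and 0.00 in MYD88_L265P, while Adgre1 is blue in all 4 and the transcription factors stay pale.

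In MYD88_L265P fewer of the 36 genes were called, in both directions. Of the 36, 5 were called, against 16.6% of all features: Lilr4b, Fcer1g and Fyb rose over EV, by log2 fold changes of 0.73 to 1.06, and Adgre1 and Tyrobp fell, by 1.78 and 0.49. In this comparison 9.32% of all features were called higher and 7.33% lower, so the members' shares, 8.33% and 5.56%, are near those of the whole table. The median was 0.07 over the 36 genes and -0.11 over all features. Both arrays lay above both EV arrays for 10 genes (23.2% of all features) and below them for 8 (47.9%), and 20 genes had a log2 fold change above 0 (33.6%). Adgre1 and Fcer1g stayed called when any single array was left out. The count of 5 became 2 when EV replicate 1 or either of the MYD88_L265P arrays was omitted. Shifting the arrays to a common median raised the share of higher calls among all called features from 56.0% to 77.7% and ended the call of Tyrobp.

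Set directly against each other, the constructs differed in 9 of the 36 genes (1.75% of all features were called), all lower in MYD88_L265P than in IKK_K171E. These were Lcp2, Tmem176b, Adgre4, Fyb, Tmem176a, Lilr4b, Tyrobp, Clec10a and Itgax, with log2 fold changes from -2.08 to -0.69, and 0 were higher. Of all features, 0.877% were called lower and 0.873% higher (49.9% of the calls were higher, and 66.4% after shifting the arrays to a common median, which ended the call of Lilr4b). Both MYD88_L265P arrays lay below both IKK_K171E arrays for 31 of the 36 genes, against 36.1% of all features, and above them for 0, against 20.9%. Cebpb alone had a log2 fold change above 0 (39.0% of all features). The group means ran in the order EV, MYD88_L265P, IKK_K171E for 19 genes (6.27% of all features) and MYD88_L265P, EV, IKK_K171E for 13 (15.0%). The count was 16 without either EV array, 5 without MYD88_L265P replicate 1, 2 without MYD88_L265P replicate 2, 2 without IKK_K171E replicate 1 (Tmem176a and Tmem176b) and 0 without IKK_K171E replicate 2. In that last fit the median log2 fold change was -0.67 over the 36 genes and -0.04 over all features. The comparisons share arrays, so their counts are not independent of each other.

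**Figure D2:**
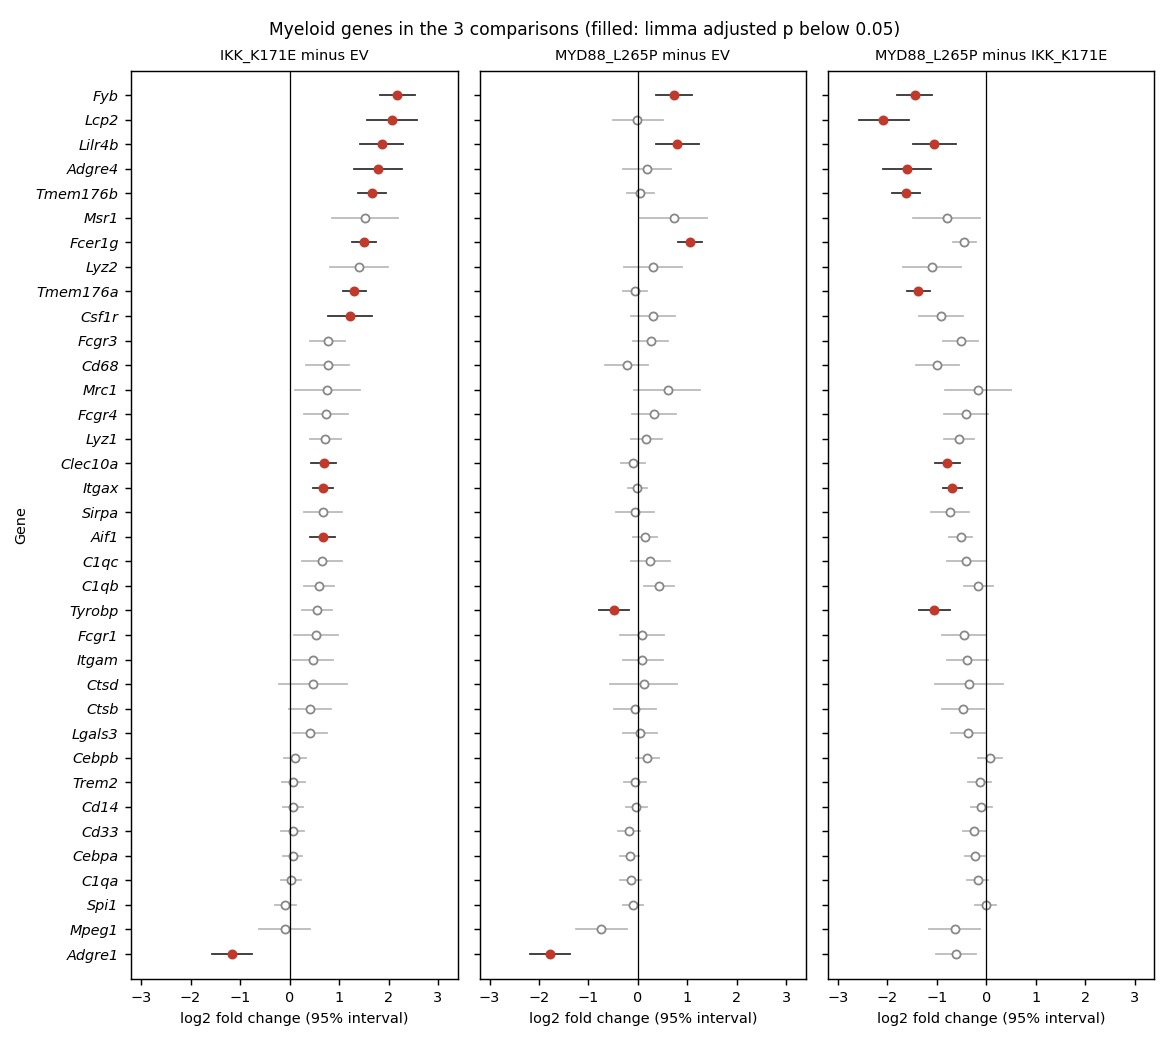
Log2 fold change of each myeloid gene (rows, ordered by the difference of IKK_K171E from EV) in the 3 comparisons, with 95% intervals from the limma standard error. Filled points passed an adjusted p of 0.05: 12 in the first panel, 5 in the second and 9 in the third, where all 9 lie left of 0.

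The cytosolic adaptors had the largest log2 fold changes of the 36 genes in IKK_K171E over EV. Fyb (ADAP) and Lcp2 (SLP-76) are scaffold proteins that couple immune receptors to actin and integrins in T cells, platelets and myeloid cells. B cells use Blnk, a scaffold related to Lcp2. Fyb read 8.17 and 8.50 in EV, 10.59 and 10.44 in IKK_K171E, and 9.23 and 8.90 in MYD88_L265P. All 3 groups were separate, with MYD88_L265P in between. The log2 fold change of Fyb over EV was 2.18 in IKK_K171E (SE 0.15, adjusted p = 0.00612) and 0.73 in MYD88_L265P (SE 0.15, adjusted p = 0.0235, not called without EV replicate 1 or either MYD88_L265P array). Lcp2 read 8.19 and 8.63 in EV, 10.74 and 10.22 in IKK_K171E, and 8.57 and 8.24 in MYD88_L265P. Its MYD88_L265P arrays fell within the range of EV, and the log2 fold changes over EV were 2.07 (SE 0.21, adjusted p = 0.0151) and -0.01 (95% interval -0.51 to 0.50). In MYD88_L265P against IKK_K171E, Lcp2 fell by 2.08 and Fyb by 1.45.

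Fcer1g, the signalling chain of several Fc receptors and lectins, was the myeloid gene that rose most over EV in MYD88_L265P. It read 8.87 and 9.09 in EV, 10.46 and 10.50 in IKK_K171E, and 10.07 and 10.02 in MYD88_L265P. The groups did not overlap, and the log2 fold changes over EV were 1.50 (SE 0.10, adjusted p = 0.00612) and 1.06 (SE 0.10, adjusted p = 0.00425). The difference between the constructs was -0.44 (95% interval -0.67 to -0.20) and missed the threshold (adjusted p = 0.0915). The 250 bases before its annotated start are given here, with those of Lilr4b, because these genes rose over EV with both constructs and each has 1 start listed by RefSeq (GRCm38.p6). All letters are lower case because none of the 3 motifs described below was found in them. The Fcer1g window is chr1:171234350-171234599 on the minus strand and the Lilr4b window is chr10:51480362-51480611 on the plus strand.
Fcer1g: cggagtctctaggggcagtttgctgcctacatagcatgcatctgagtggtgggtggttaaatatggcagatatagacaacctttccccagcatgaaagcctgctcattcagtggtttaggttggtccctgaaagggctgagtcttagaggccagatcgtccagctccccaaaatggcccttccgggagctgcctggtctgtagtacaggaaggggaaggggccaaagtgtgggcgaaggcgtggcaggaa
Lilr4b: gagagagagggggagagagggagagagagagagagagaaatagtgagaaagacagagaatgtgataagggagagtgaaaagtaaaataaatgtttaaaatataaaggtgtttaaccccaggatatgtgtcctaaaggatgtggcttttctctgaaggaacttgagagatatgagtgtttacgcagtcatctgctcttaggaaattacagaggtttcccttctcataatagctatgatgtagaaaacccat

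Tyrobp, the other ITAM adaptor, went a different way in MYD88_L265P. It read 10.37 and 10.17 in EV, 10.88 and 10.77 in IKK_K171E, and 9.92 and 9.63 in MYD88_L265P. Its arrays were highest in IKK_K171E and lowest in MYD88_L265P, with a log2 fold change between the constructs of -1.05 (SE 0.13, adjusted p = 0.0168). Against EV it fell by 0.49 in MYD88_L265P (adjusted p = 0.0425, not called when any single array was left out), and in IKK_K171E the log2 fold change was 0.55 (adjusted p = 0.0886). The Fc receptors that pair with Fcer1g did not pass in any comparison. The activating receptor genes Fcgr3 and Fcgr4 and the high-affinity receptor gene Fcgr1 had log2 fold changes of 0.78, 0.74 and 0.53 in IKK_K171E over EV (adjusted p = 0.0601, 0.112 and 0.216). In MYD88_L265P over EV these were 0.26, 0.32 and 0.09. Both IKK_K171E arrays of each were above EV, and replicate 1 was the higher of the pair by 0.32, 0.51 and 0.57 log2 units.

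Among surface genes, Lilr4b had the largest log2 fold change in IKK_K171E over EV. It encodes a receptor of the leukocyte immunoglobulin-like family (gp49) known from myeloid and mast cells. Lilr4b read 9.05 and 9.29 in EV, 11.19 and 10.87 in IKK_K171E, and 10.21 and 9.73 in MYD88_L265P. The groups did not overlap, and the log2 fold changes over EV were 1.86 (SE 0.18, adjusted p = 0.0131) and 0.80 (SE 0.18, adjusted p = 0.0301, not called without any 1 of the EV or MYD88_L265P arrays). Csf1r, the receptor on which many macrophages depend, read 7.66 and 8.20 in EV, 9.30 and 8.99 in IKK_K171E, and 8.30 and 8.15 in MYD88_L265P. Both IKK_K171E arrays lay above the other 4, with log2 fold changes over EV of 1.22 (SE 0.19, adjusted p = 0.0383) and 0.30 (95% interval -0.14 to 0.74). The difference between the constructs was -0.92 (adjusted p = 0.0664), which missed the threshold.

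Adgre4, Itgax and Clec10a were higher in IKK_K171E than in both other groups. Adgre4, an adhesion G protein-coupled receptor gene of macrophages, read 6.11 and 6.72 in EV, 8.04 and 8.37 in IKK_K171E, and 6.51 and 6.70 in MYD88_L265P. In IKK_K171E it exceeded EV by 1.79 log2 units (SE 0.21, adjusted p = 0.0209) and the log2 fold change of MYD88_L265P over IKK_K171E was -1.60 (adjusted p = 0.0196). Itgax, the integrin alpha chain of dendritic cells, had the closest replicates. It read 7.56 and 7.60 in EV, 8.25 and 8.27 in IKK_K171E, and 7.59 and 7.56 in MYD88_L265P. Against EV, Itgax had a log2 fold change of 0.68 in IKK_K171E (SE 0.08, adjusted p = 0.0234) and -0.01 in MYD88_L265P (95% interval -0.20 to 0.19). Clec10a, a galactose-binding lectin gene, read 6.20 and 6.13 in EV, 6.97 and 6.73 in IKK_K171E, and 6.08 and 6.04 in MYD88_L265P, with 0.69 in IKK_K171E over EV (SE 0.11, adjusted p = 0.0383). With Aif1 and Csf1r, these 3 genes lost the call over EV when either MYD88_L265P array was left out. Itgax and Clec10a also lost it without EV replicate 2, Csf1r and Aif1 without IKK_K171E replicate 2, and Aif1 without EV replicate 1. A filter on low signal left out Adgre4 and Clec10a, and 34 of 36 genes passed it.

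Adgre1, an adhesion receptor gene whose product is a standard macrophage marker, was the 1 member called lower in IKK_K171E, and with Tyrobp it was 1 of 2 called lower in MYD88_L265P. It read 11.30 and 11.11 in EV, 10.10 and 9.97 in IKK_K171E, and 9.69 and 9.16 in MYD88_L265P. EV was the highest group without overlap, and Adgre1 fell by 1.17 in IKK_K171E (SE 0.17, adjusted p = 0.0361) and by 1.78 in MYD88_L265P (SE 0.17, adjusted p = 0.00425). The former call ended when any 1 of the EV or IKK_K171E arrays was left out (log2 fold change -1.26 to -1.07 over all alternatives). The related gene Adgre4 thus rose in IKK_K171E while Adgre1 fell there.

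The remaining surface genes split into a set with positive values in IKK_K171E and a set near 0. The scavenger receptor gene Msr1 had a log2 fold change over EV of 1.52 (SE 0.29, adjusted p = 0.0574), from 8.07 and 8.47 in EV to 10.22 and 9.37 in IKK_K171E. The mannose receptor gene Mrc1 (0.76), the inhibitory receptor gene Sirpa (0.67) and the integrin gene Itgam (0.47) had arrays above those of EV and adjusted p-values of 0.231, 0.0987 and 0.222. Itgam lies beside Itgax in the RefSeq gene order, with 0 protein-coding genes between them. By contrast Cd14, the lipopolysaccharide co-receptor gene, had a log2 fold change of 0.07 in IKK_K171E (95% interval -0.14 to 0.28) and -0.03 in MYD88_L265P (-0.24 to 0.18). Trem2, a lipid receptor gene that signals through Tyrobp, had 0.07 (-0.16 to 0.31) and -0.06 (-0.29 to 0.17). The sialic acid receptor gene Cd33 had 0.06 (-0.17 to 0.30) and -0.18 (-0.41 to 0.05).

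**Figure D3:**
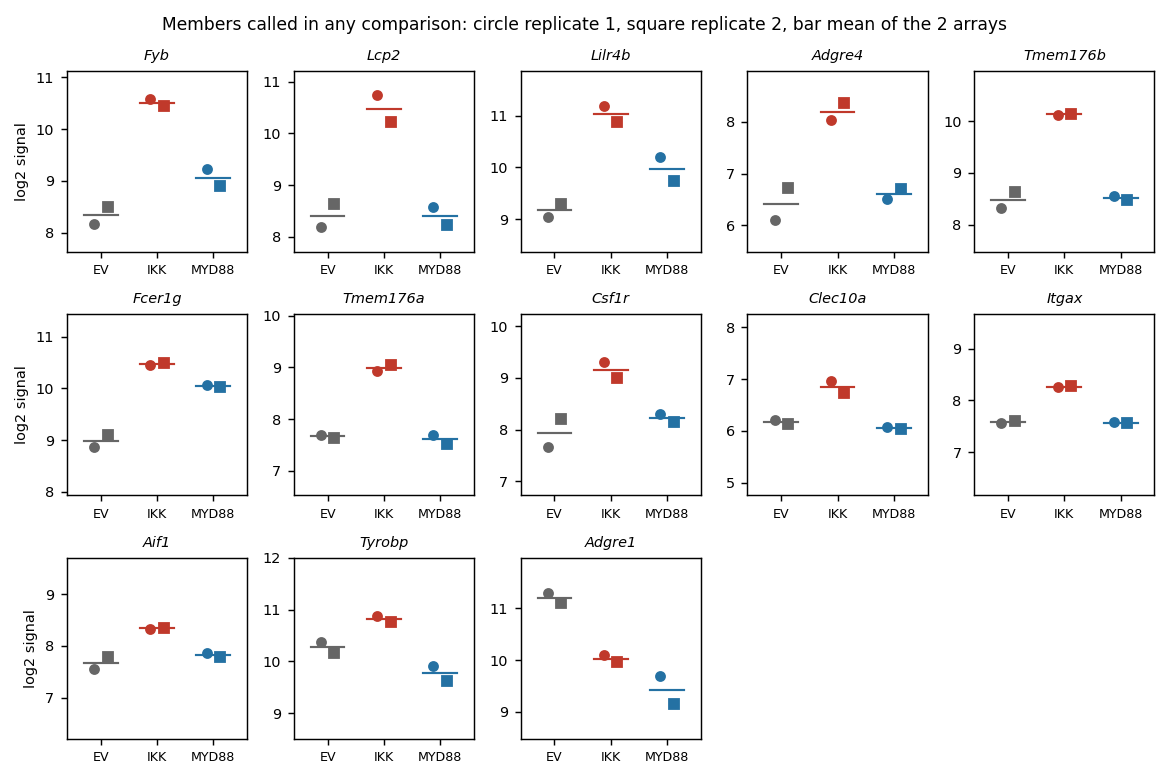
Log2 signal of the 13 genes called in any comparison, on each array of EV, IKK_K171E (IKK) and MYD88_L265P (MYD88). Circles are replicate 1, squares replicate 2 and bars the mean of the 2 arrays, on axes of equal height. IKK_K171E is highest for 12 of the 13, and for Adgre1 EV is highest.

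Of the lysosomal genes, 0 of 6 passed in any comparison with limma, and 3 of 6 (Lyz1, Lyz2 and Cd68) had an unadjusted p below 0.05 in IKK_K171E over EV. Across the table, 3675 of 21542 features were below that level in this comparison. Lyz2, the macrophage lysozyme gene, read 11.09 and 11.95 in EV, 12.96 and 12.89 in IKK_K171E, and 11.94 and 11.70 in MYD88_L265P. Over EV, the IKK_K171E log2 fold change was 1.41 (SE 0.25, unadjusted p = 6.95e-04, adjusted p = 0.0501), just outside the threshold, and it was called in 7 of the 12 alternatives. Its neighbour Lyz1 had 0.72 (SE 0.13, unadjusted p = 7.46e-04, adjusted p = 0.0517). The 2 lysozyme genes are close paralogs, and probes for one may detect the other. Cd68, a lysosomal membrane protein gene, had 0.77 in IKK_K171E over EV (adjusted p = 0.0962) and -0.99 in MYD88_L265P over IKK_K171E (adjusted p = 0.0519), with replicates 0.49 apart in IKK_K171E. For the proteases Ctsd (0.47, 95% interval -0.21 to 1.16) and Ctsb (0.42, -0.01 to 0.84) the arrays of IKK_K171E and EV overlapped. Mpeg1, the gene of the pore-forming protein perforin-2, had -0.09 in IKK_K171E (-0.61 to 0.42) and -0.74 in MYD88_L265P over EV (adjusted p = 0.0581).

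The genes of the 3 C1q chains lie side by side, and their products assemble into the starter molecule of the classical complement pathway. They also had 0 members called by limma, while C1qb and C1qc had an unadjusted p below 0.05 in IKK_K171E over EV. Across the table, 3675 of 21542 features were below that level in this comparison. C1qb and C1qc had log2 fold changes of 0.59 and 0.66 in IKK_K171E over EV (adjusted p = 0.0802 and 0.109), and 0.42 and 0.25 in MYD88_L265P (adjusted p = 0.0617 and 0.285). Their IKK_K171E arrays lay above both EV arrays. C1qa read 7.91 and 8.02 in EV, 8.04 and 7.95 in IKK_K171E, and 7.83 and 7.81 in MYD88_L265P. It had 0.03 in IKK_K171E (95% interval -0.18 to 0.24) and -0.14 in MYD88_L265P (-0.36 to 0.07), and so did not follow the other chains.

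Tmem176a and Tmem176b had the smallest adjusted p-values of the 36 genes between the constructs. They encode related membrane proteins of dendritic cells and macrophages and lie head to head with overlapping annotated transcripts. Tmem176a read 7.70 and 7.64 in EV, 8.93 and 9.04 in IKK_K171E, and 7.70 and 7.52 in MYD88_L265P. Tmem176b read 8.31 and 8.63 in EV, 10.12 and 10.14 in IKK_K171E, and 8.55 and 8.48 in MYD88_L265P. Both IKK_K171E arrays of each gene lay above the other 4. Their log2 fold changes over EV were 1.31 and 1.67 in IKK_K171E (SE 0.10 and 0.12, adjusted p = 0.00624 and 0.00612) and -0.06 and 0.05 in MYD88_L265P (95% intervals -0.30 to 0.18 and -0.23 to 0.33). Between the constructs the log2 fold changes were -1.37 and -1.62 (adjusted p = 0.0034 for each). Aif1, the gene of a calcium-binding actin regulator of macrophages (IBA1), read 7.56 and 7.78 in EV, 8.33 and 8.35 in IKK_K171E, and 7.86 and 7.78 in MYD88_L265P, with 0.67 in IKK_K171E over EV (SE 0.10, adjusted p = 0.0383). Lgals3, the galectin-3 gene, had 0.41 (adjusted p = 0.211) and 0.05.

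Start regions were searched because IKK acts on NF-kB and PU.1 directs many myeloid genes. RefSeq windows of 250 bases before annotated starts (GRCm38.p6) were at hand for 26 of the 36 genes, 30 windows in all. The 3 motifs, read on both strands, were GAGGAA for PU.1, GGAA followed by any 2 bases and GAAA for the composite of ETS and IRF factors, whose GGAA can overlap the former, and the NF-kB consensus. GAGGAA occurred in 15 of the 30 windows (50.0%) and in 23.3% of 32851 windows of all genes. The NF-kB consensus occurred in 6 (20.0%, against 3.90% of all windows), those of C1qc, Fcgr3, Fcgr4, Tmem176a and Tmem176b, and the ETS-IRF composite in 0 (2.30% of all windows). The windows of Tmem176a and Tmem176b overlap and hold the same NF-kB match and the same GAGGAA matches, so these count for both genes. The NF-kB match is shown on the minus strand, chr6:48841387-48841416. Beside it are GAGGAA matches of Fyb, chr15:6579752-6579781 on the plus strand, and of the same Tmem176b window, chr6:48841480-48841509 on the minus strand. Of the 14 genes with GAGGAA, only Aif1, Fyb, Tmem176a and Tmem176b were called in any comparison. Of the 5 with the NF-kB consensus, C1qc, Fcgr3 and Fcgr4 were called in none. Capitals mark the motif.
Tmem176b NF-kB: ggcccctttaGGGGTTTTCCagcaggcagc
Tmem176b GAGGAA: cagccctggcagGAGGAAgaacctgggtgg
Fyb GAGGAA: tgttttgccataGAGGAActtaaatgttac
Matches are descriptions of these letters and do not show that a factor binds.

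Of the transcription factors of the list, 0 of 3 were called in any comparison with limma. Between the constructs 1 of them, Cebpa, had an unadjusted p below 0.05, as did 4221 of 21542 features. Spi1, which encodes PU.1, read 9.61 and 9.49 in EV, 9.49 and 9.42 in IKK_K171E, and 9.43 and 9.46 in MYD88_L265P. Its log2 fold changes over EV were -0.09 (95% interval -0.30 to 0.12) and -0.10 (-0.31 to 0.11). Cebpa had 0.06 (-0.14 to 0.26) and -0.17 (-0.37 to 0.03), and Cebpb, also an acute-response factor, had 0.11 (-0.12 to 0.34) and 0.19 (-0.04 to 0.42). Of 12 measured genes of related factors and partners, 0 rose and 3 fell in IKK_K171E over EV: Irf8 (-0.84, adjusted p = 0.0492), Ets1 (-0.57) and Bach2, a repressor of myeloid genes in B cells (-0.90, adjusted p = 0.0375). In that comparison 0.956% of all features were called higher and 0.413% lower. In MYD88_L265P over EV, Cebpd rose by 1.05 (adjusted p = 0.00445), and Ets1 and Bach2 fell, where 9.32% of all features were called higher and 7.33% lower. Of 18 measured signalling partners of the receptors, Clec5a, a lectin receptor gene that pairs with Tyrobp, rose in IKK_K171E over EV by 1.06 (adjusted p = 0.00769) and 0 fell, while in MYD88_L265P 0 rose and Vav1, Grap2 and Ptpn6 fell, Grap2 most (-1.07), where 7.33% of all features were called lower. The median log2 fold changes over these 18 genes were -0.15 and -0.26.

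The spread between replicates was wider for the myeloid genes than for the table as a whole. The median absolute gap between the arrays of a group was 0.23 (EV), 0.17 (IKK_K171E) and 0.15 (MYD88_L265P) log2 units over the 36 genes, and 0.12, 0.12 and 0.09 over all features. The widest gaps were those of Lyz2 in EV (0.85) and Mrc1 in IKK_K171E (0.87). In EV, replicate 2 was above replicate 1 for 24 of the 36 genes (51.5% of all features), in IKK_K171E for 10 (52.4%) and in MYD88_L265P for 7 (49.1%). IKK_K171E replicate 1 was the highest of all 6 arrays for 23 genes and replicate 2 for 9, and for 25.2% of all features an IKK_K171E array was highest. An EV array was highest for Mpeg1, Adgre1 and Spi1 (50.0% of all features) and a MYD88_L265P array for Cebpb (24.9%). EV replicate 1 was the lowest array for 20 of the 36. The 9 genes highest in IKK_K171E replicate 2 were Tmem176a, Tmem176b, Itgax, Fcer1g, Aif1, Adgre4, Lyz1, Cd33 and Cebpa.

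Markers of other cells were read on the same arrays, from lists also chosen with earlier results of these data known. Of 17 monocyte genes outside the 36, 7 rose in IKK_K171E over EV (Pilra, an inhibitory receptor gene, at 1.66, and 6 lectin genes, of which Clec4a3 was highest at 2.37) and 1 fell (Plac8, -0.70), with a median of 0.69, where 0.956% of all features were called higher and 0.413% lower. The 9 others were not called, among them the monocyte receptor genes Ccr2 (0.69, adjusted p = 0.0505) and Cx3cr1 (0.07), Clec7a (1.32, adjusted p = 0.0646), Chil3 (0.13), Csf2ra (0.10), Fn1 (-0.09), F13a1 (-0.13) and Itgb2 (-0.28). In MYD88_L265P over EV, 4 of the 17 rose, led by Clec4a3 (1.03), and 3 fell, led by Plac8 (-0.74), where 9.32% of all features were called higher and 7.33% lower. Of 15 genes of spleen macrophages outside the 36, Spic, the factor of red pulp macrophages, rose in IKK_K171E (1.60, SE 0.27, adjusted p = 0.0436) and 0 fell, with a median of 0.15. The tissue macrophage receptor genes Marco (-0.03, 95% interval -0.25 to 0.18), Cd163 (-0.06) and Timd4 (0.01) did not pass, nor did Mertk (0.89, adjusted p = 0.149), a receptor gene for dying cells, Hmox1 (0.53), Vcam1 (0.50) and Slc40a1 (0.49), the iron exporter gene. In MYD88_L265P, Hmox1, the heme oxygenase gene, rose by 1.36 and Cd5l fell.

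Genes of other lineages were counted against the same share of all features, 1.37% called in IKK_K171E over EV, at which a list of this size is likely to hold none. Limma called 0 of 15 neutrophil, 0 of 10 mast cell and basophil, 0 of 14 T cell, 0 of 11 NK cell and 0 of 6 erythroid and platelet genes, with medians of 0.02, -0.01, 0.18, 0.18 and 0.01. An unadjusted p below 0.05 was found for 3, 1, 1, 6 and 2 of them, and for 3675 of the 21542 tested features. The 6 NK cell genes at that level had log2 fold changes from -0.54 (Klrd1) to 0.69 (Gzmb). Of 15 dendritic cell genes 3 were called: Fscn1, an actin-bundling protein gene, rose by 1.43, Flt3 rose by 0.75 and Ccr7 fell by 0.63. Some listed genes read as high as B cell markers. Log2 signals over the 6 arrays ran from 10.50 to 11.34 for Ccr7 and 11.28 to 12.20 for Plac8 of the monocyte list. Those of Cd79a ran from 10.52 to 11.24. Which cells the signal of Ccr7 and Plac8 came from was not tested. Of 14 measured B cell genes 2 fell, Cd72 (-0.69) and Cd22 (-0.64), and in MYD88_L265P over EV 8 fell, Fcmr most (-1.97), and 1 rose (Pou2af1), where 7.33% of all features were called lower and 9.32% higher.

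Between the constructs, some lymphocyte and neutrophil genes were also lower in MYD88_L265P than in IKK_K171E. Of all features, 0.877% were called lower and 0.873% higher in this comparison. Of 14 T cell genes 2 fell, Cd3g (-1.14, SE 0.18, adjusted p = 0.035) and Cd3e (-0.61, SE 0.10, adjusted p = 0.0348), and of 11 NK cell genes 1 fell, the granule gene Nkg7 (-0.75, SE 0.09, adjusted p = 0.0152). Of 15 neutrophil genes the chemokine receptor gene Cxcr2 (-0.85) and S100a8 (-0.52) fell. Of 15 dendritic cell genes Fscn1 (-1.66), Flt3 (-1.63) and Zbtb46 (-0.58) fell and Ccr9 (1.70) rose.

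The summed linear signal of the 36 genes, in arbitrary units, ran from 21983 to 25326 in EV, 36175 to 42245 in IKK_K171E and 21573 to 24048 in MYD88_L265P. That of the B cell genes ran from 45250 to 49070, 38043 to 40099 and 31552 to 31751. The spleen macrophage genes outside the 36 summed to 3100 to 3279, 3763 to 4319 and 3381 to 3609, and the monocyte genes to 10356 to 10395, 10994 to 12451 and 8301 to 9211. Thus the myeloid, monocyte and spleen macrophage sums were higher in IKK_K171E than in the other groups without overlap. The B cell sum was highest in EV and lowest in MYD88_L265P. The same excess in IKK_K171E was seen for T cell genes (3748 to 3937 in EV, 4029 to 4541 in IKK_K171E, 3219 to 3381 in MYD88_L265P). It was also seen for NK cell (1842 to 2065, 2181 to 2275, 1523 to 1816) and neutrophil genes (2370 to 2470, 2504 to 2563, 2173 to 2200). Sums of dendritic cell, mast cell and basophil, and erythroid and platelet genes overlapped between IKK_K171E and EV. A linear sum is weighted by bright features: the 6 lysosomal genes, none called, ran from 9475 to 12234 in EV and 16539 to 19690 in IKK_K171E. How much of the signal came from myeloid cells in the sort and how much from the B cells was not tested.

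**Figure D4:**
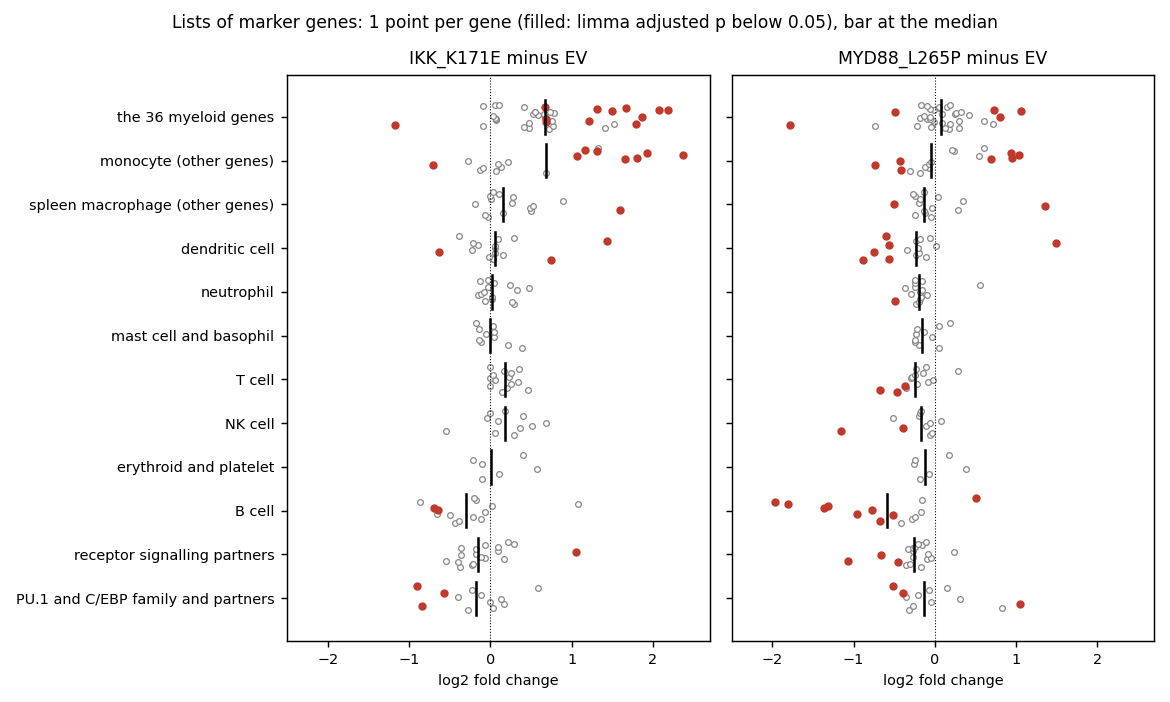
Log2 fold change of every measured gene in 12 lists, in IKK_K171E over EV (left) and MYD88_L265P over EV (right), with 1 point per gene, filled where the adjusted p was below 0.05, and a bar at the list's median. In the left panel the medians of the 36 myeloid genes (0.67) and of the other monocyte genes (0.69) lie to the right of all other lists. Every monocyte gene called higher there was Pilra or a Clec4 lectin gene. The lists were chosen with earlier results of these data known.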

How the data were processed

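The deposited table gives log2 expression per feature of Affymetrix mouse ST 1.0 arrays, processed by the authors with oligo and limma, per the submitters' processing notes. Background correction, normalization and genome build are not given in the sources used here. Features were named from the platform annotation. Of 24743 features, 21542 had exactly 1 gene symbol and were tested, 1522 had several and 1679 none. Array medians ran from 8.03 to 8.13.

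Group means of all 6 arrays were fitted with limma 3.58.1 in R 4.3.3, and variances were moderated by empirical Bayes (residual degrees of freedom 3, prior 4.17). Two-sided p-values received the Benjamini-Hochberg adjustment over every feature of a comparison, and calls were made below 0.05. Intervals are 95% intervals from the moderated standard error. P-values measure the spread between arrays described as biological replicates. The fit was tested on simulated data. Replicates are numbered by their descriptions.

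The 36 genes and the other lists were chosen with earlier results of these data known. Named genes were all 36, the transduced genes and B cell markers. For each other list, the called gene of largest change was named in the comparisons for which that list is described. Other called genes of short counts were named after their values were seen. Genes of the other lists that were not called were named outside this rule. Alternatives were the replicate block, quantile normalization, a common median, a filter leaving out the lowest 25% of features by signal, the mean of a gene's features, a variance trend, and each array left out in turn.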

Additional observations from a re-analysis of the deposited data

How the results depend on the processing

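The 12 alternatives (6 other settings and each of the 6 arrays left out) reversed the sign of 0 called myeloid genes. Among the 108 values (36 genes in 3 comparisons), 24 that were not called changed sign under some alternative, 46 times in 1290, with log2 fold changes of at most 0.30 in size. With the replicate number as a block, the count of features called in IKK_K171E over EV rose from 295 to 626 and that of myeloid genes from 12 to 18 (17 higher, 1 lower). Across features, replicate differences correlated between groups at 0.10, 0.21 and 0.14, and with 2 numbers a group this did not establish pairs, so the numbers were treated as names. The block follows the descriptions' numbers 1 and 2, whereas the titles number these arrays 2 and 3 in EV and 1 and 3 in each other group, so number 1 joins arrays whose titles differ.

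With arrays left out in turn, features called ranged from 191 to 3554 (3586 with all arrays) in MYD88_L265P over EV, from 0 to 506 (295) in IKK_K171E over EV and from 14 to 592 (377) in MYD88_L265P over IKK_K171E. Myeloid genes called ranged from 2 to 5 (5), 0 to 12 (12) and 0 to 16 (9). Their medians ranged from -0.02 to 0.15 (0.07), from 0.49 to 0.78 (0.67) and from -0.67 to -0.42 (-0.52). A fit without an array has fewer residual degrees of freedom, and assumes that the lone array of its group varies like the others. Over the 5 settings beside the block with all arrays, myeloid counts ran from 5 to 7, 12 to 15 and 7 to 11.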
